A study of Mus musculus with 9 samples.

Results

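The genes described here are the NF-kappaB subunits Nfkb1, Nfkb2, Rel, Rela and Relb and the inhibitors Nfkbia, Nfkbib, Nfkbie, Nfkbiz and Tnfaip3, followed in macrophages of mouse fibrosarcomas and of the peritoneum. Their spots were taken by gene name, as every non-control spot of the array that carries one of these 10 names. This gave 15 spots of 14 different probes for 10 genes, among 59305 non-control spots and 36492 gene names on the array. The arrays held RNA of 3 samples each of F4/80high tumour-associated macrophages (F4/80high TAM) from fibrosarcoma, F4/80low tumour-associated macrophages (F4/80low TAM) from fibrosarcoma, and control macrophages from peritoneal exudate cells (PEC) of the peritoneum. F4/80 is the surface protein encoded by Adgre1. All 9 samples came from C57BL/6J mice with no further allele or agent in the labels, and the series describes its samples as biological replicates, 3 per group. The labels name no sorting gate, tumour model, age or number of animals per sample, so p-values here measure the spread between these 9 samples.

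NF-kappaB proteins bind DNA as dimers. Rela, Relb and Rel carry a transactivation domain, whereas Nfkb1 and Nfkb2 encode precursors that are shortened to DNA-binding partners. In resting macrophages the inhibitors of the IkappaB family, which include Nfkbia, Nfkbib and Nfkbie, hold the dimers in the cytoplasm until the IKK kinase complex marks the inhibitor for degradation. Several inhibitors are themselves induced by NF-kappaB, which gives the pathway a negative feedback loop. Nfkbiz encodes a nuclear relative of these inhibitors that acts as a cofactor at a subset of target genes, and Tnfaip3 encodes a ubiquitin-editing enzyme that dampens signalling upstream of IKK.

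The sequences behind the measurements are shown first, since the array reads each gene through a 60-base probe. The probes below belong to 4 of the genes whose levels follow, and are given in the coordinates of the mm9 build that the scanner files give. Exon and intron annotation of that build was not used here. The Nfkbia probe, listed at chr12:56590945-56591440 on the minus strand, is spread over 496 genomic bases, and the Nfkb2 probe at chr19:46386146-46386285 on the plus strand over 140. The Nfkb1 probe lies at chr3:135254550-135254609 on the minus strand. Both Nfkbib probes lie on the minus strand, the one used for the gene at chr7:29544160-29544219 and the other at chr7:29545252-29546647, over 1396 bases.
Nfkbia probe: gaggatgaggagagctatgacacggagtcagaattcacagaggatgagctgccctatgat
Nfkb2 probe: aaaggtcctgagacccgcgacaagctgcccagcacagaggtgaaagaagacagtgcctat
Nfkb1 probe: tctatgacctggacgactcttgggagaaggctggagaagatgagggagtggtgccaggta
Nfkbib probe used for the gene: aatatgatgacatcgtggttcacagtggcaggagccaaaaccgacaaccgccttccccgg
Nfkbib other probe: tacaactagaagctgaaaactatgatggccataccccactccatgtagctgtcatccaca

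Promoters are shown because induction of inhibitors by NF-kappaB itself is the known feedback of this pathway. Promoter sequences from RefSeq on GRCm38.p6, covering 250 bases before to 50 bases after a gene start, were listed for 7 of the 10 genes, with 3 starts for Nfkb2 and 2 for Tnfaip3. Nfkb1, Relb and Nfkbiz had no entry. These promoters were searched on both strands for the degenerate kappaB consensus and for the narrower motif GGGNNTTTCC. The consensus was found in the promoters of 5 of the 7 genes (Nfkb2, Nfkbia, Nfkbie, Rel and Tnfaip3), against 5.14% of all 27025 genes with a promoter of that length, counting a gene once if any of its starts had a match. GGGNNTTTCC was found in 4 of the 7 genes (Nfkb2, Nfkbia, Rel and Tnfaip3), against 1.89% of all genes, and each of these matches was also a match of the consensus. Neither motif was found in the listed promoters of Nfkbib and Rela. A match describes letters in a sequence and does not show that a factor binds there. Capitals mark the bases that match the consensus on either strand, and overlapping matches are merged.
Nfkbia, chr12:55492598-55492897, minus strand: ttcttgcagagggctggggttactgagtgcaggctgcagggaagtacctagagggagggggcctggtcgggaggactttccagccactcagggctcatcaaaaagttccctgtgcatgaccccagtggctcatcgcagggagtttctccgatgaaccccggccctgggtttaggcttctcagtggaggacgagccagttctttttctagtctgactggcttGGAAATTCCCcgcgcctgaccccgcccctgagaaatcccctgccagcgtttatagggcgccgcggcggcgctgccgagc
Tnfaip3, chr10:19015361-19015660, minus strand: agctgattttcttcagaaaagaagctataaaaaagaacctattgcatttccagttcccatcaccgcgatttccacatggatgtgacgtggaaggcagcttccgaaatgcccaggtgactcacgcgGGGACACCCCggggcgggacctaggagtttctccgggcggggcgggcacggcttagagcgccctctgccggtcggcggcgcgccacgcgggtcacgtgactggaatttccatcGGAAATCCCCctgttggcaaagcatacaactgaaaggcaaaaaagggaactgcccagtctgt
Nfkbie, chr17:45555450-45555749, plus strand: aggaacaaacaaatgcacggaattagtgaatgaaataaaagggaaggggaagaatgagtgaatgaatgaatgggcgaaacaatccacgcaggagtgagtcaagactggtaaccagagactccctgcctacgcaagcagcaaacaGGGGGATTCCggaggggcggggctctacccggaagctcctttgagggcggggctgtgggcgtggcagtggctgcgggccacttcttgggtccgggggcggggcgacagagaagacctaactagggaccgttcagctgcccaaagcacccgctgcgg
Nfkb2, chr19:46304487-46304786, plus strand: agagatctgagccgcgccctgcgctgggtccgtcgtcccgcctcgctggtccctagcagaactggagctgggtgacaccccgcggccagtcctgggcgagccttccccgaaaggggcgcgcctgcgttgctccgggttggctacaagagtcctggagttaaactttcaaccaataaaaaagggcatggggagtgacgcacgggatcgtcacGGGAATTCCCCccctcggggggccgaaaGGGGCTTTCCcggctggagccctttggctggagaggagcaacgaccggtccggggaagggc
Rel, chr11:23770920-23771219, minus strand: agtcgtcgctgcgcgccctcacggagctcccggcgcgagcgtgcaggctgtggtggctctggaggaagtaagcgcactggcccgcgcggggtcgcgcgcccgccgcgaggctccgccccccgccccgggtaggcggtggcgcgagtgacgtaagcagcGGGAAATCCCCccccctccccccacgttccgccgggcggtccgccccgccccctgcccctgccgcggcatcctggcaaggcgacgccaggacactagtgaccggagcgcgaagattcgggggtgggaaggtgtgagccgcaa

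In Nfkbia the match read GGGAATTTCC on the strand opposite to transcription, with its bases at -29 to -20 from the start. Tnfaip3 held GGGACACCCC at -125 to -116 and, on the opposite strand, GGGGATTTCC at -12 to -3. Nfkbie held GGGGGATTCC at -106 to -97. In the promoter of Nfkb2 printed here, GGGAATTCCC lay at -39 to -30 and GGGGCTTTCC at -11 to -2. The other 2 Nfkb2 promoters each held GGGACTTTCC, which is 1 shared site because their windows overlap. One of them also held GGGACATTCC at -236 to -227 on the opposite strand. Rel held GGGAAATCCC at -92 to -83 and, on the opposite strand, GGGGATTTCC at -91 to -82, which is its match of GGGNNTTTCC.

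Levels are given as log2 of the processed intensity minus that of the 75th percentile of the same array, control spots left out, so that 0 is this percentile. It was an intensity of 53.5 to 97.3. An array had 36.1% to 38.3% of its spots well above background, and 0 saturated ones. Arrays of a group correlated at 0.970 to 0.987 over log2 intensities, and no 2 arrays of a group held the same values. A probe entered the test if any group had it well above background on each of its 3 arrays. This left 16462 genes, each read by its brightest such probe. A gene was called when limma's moderated test, two-sided, over all 9 arrays gave a Benjamini-Hochberg adjusted p under 0.05 across all 16462 genes. All 6 TAM arrays and PEC replicate 1 lay on 1 slide, and PEC replicates 2 and 3 lay on another. Values against PEC are therefore also given within slide 1, which leaves 1 PEC array. Levels of different probes are not compared with each other, except where marker levels are summed. There the share of a gene in the sum also depends on its probe.

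Of the 10 genes, 9 passed the filter and were tested. Nfkbiz passed it only through the TAM arrays, since it was well above background on 2 of the 3 PEC arrays. The counts against PEC below include Nfkbiz and are not free of that selection. In F4/80high TAM all 9 were called higher than in PEC, with a median log2 fold change of 3.37. Across all genes tested, 53.1% were called in this comparison, 25.0% higher and 28.0% lower, and the median log2 fold change was 0.0022. In F4/80low TAM 8 were called higher than in PEC and Rela was not called, with a median of 2.16. The background there was 51.9% called, 22.7% higher and 29.2% lower, with a median of -0.09. Between the TAM subsets 7 were called higher in F4/80high TAM, and Nfkbiz and Relb were not called, with a median of 1.13. The background was 32.6% called, 18.6% higher and 14.0% lower, with a median of 0.08. The arrays of both groups did not overlap for 9, 8 and 7 of the genes in these comparisons, against 65.2%, 59.3% and 46.7% of all genes tested. In all 3 comparisons 0 of the 9 were lower, also at an unadjusted p under 0.05. The 2 comparisons against PEC share the PEC arrays and are not independent of each other.

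**Figure D1:**
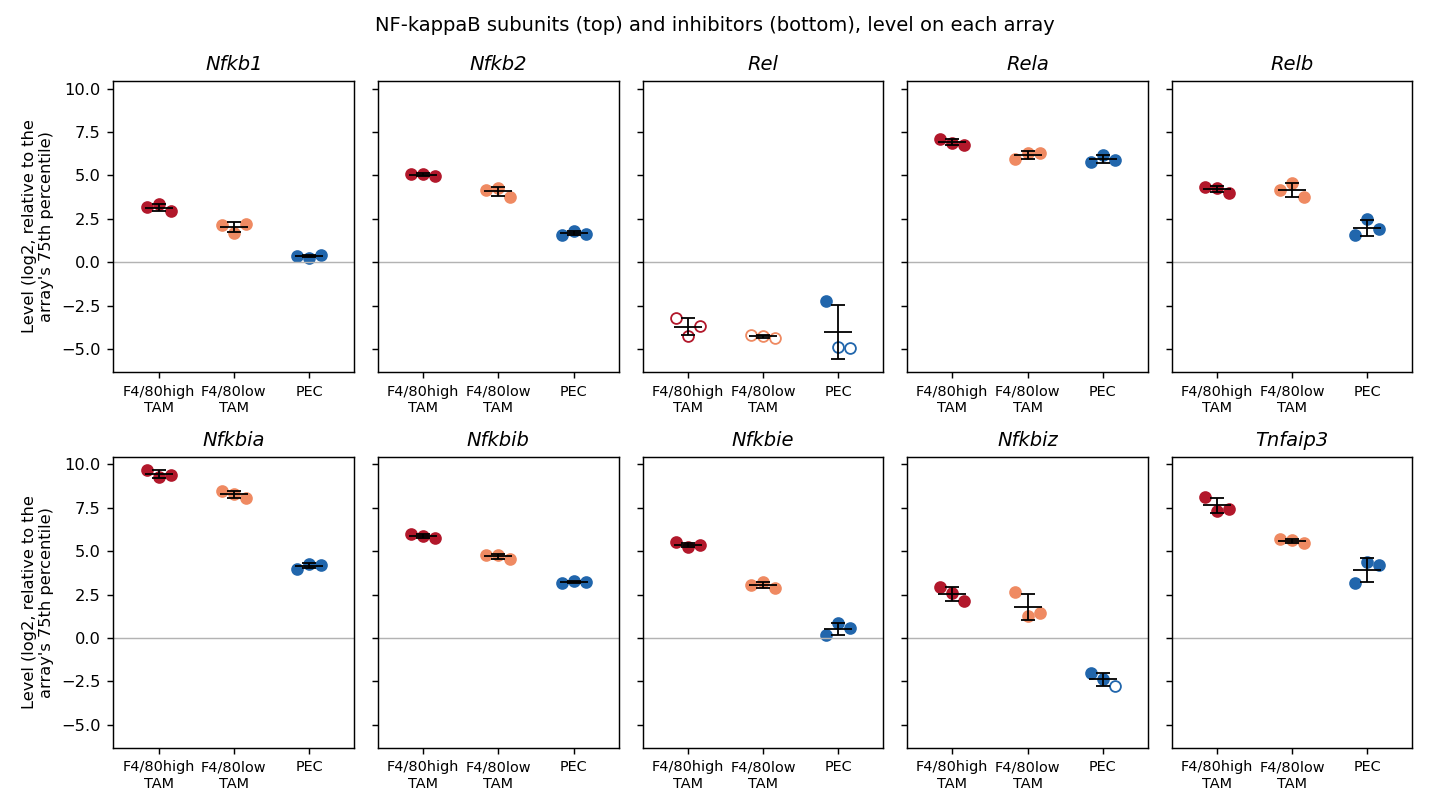
Level of each of the 10 genes on each array, in log2 units relative to the array's 75th percentile. Subunits are in the top row and inhibitors in the bottom row. Points are arrays, open points are not well above background, and bars are the group mean and SD (n = 3). Nfkb1, Nfkb2, Nfkbia, Nfkbib, Nfkbie and Tnfaip3 step down in the order F4/80high TAM, F4/80low TAM, PEC. Relb and Nfkbiz overlap between the TAM subsets, and Rela overlaps between F4/80low TAM and PEC.

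Among the subunits, Nfkb2 and Nfkb1 had the largest fitted changes against PEC in F4/80high TAM. Nfkb2 encodes the precursor processed in the noncanonical branch of the pathway. It had levels of 5.09, 5.09 and 4.97 in F4/80high TAM, 4.17, 4.30 and 3.77 in F4/80low TAM, and 1.57, 1.82 and 1.64 in PEC. No group overlapped another. Nfkb2 was 10.3-fold higher in F4/80high TAM than in PEC (log2 fold change 3.37, SE 0.18, limma adjusted p = 1.31e-06) and 5.28-fold higher in F4/80low TAM than in PEC (2.40, SE 0.18, adjusted p = 1.12e-05).

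Nfkb1 encodes the precursor of the classical DNA-binding partner of Rela. Its levels were 3.15, 3.35 and 2.95 in F4/80high TAM, 2.16, 1.70 and 2.22 in F4/80low TAM, and 0.38, 0.27 and 0.41 in PEC. The 3 PEC arrays lay close together and below every TAM array. Nfkb1 was 6.96-fold higher in F4/80high TAM than in PEC (log2 fold change 2.80, SE 0.19, limma adjusted p = 4.99e-06) and 3.19-fold higher in F4/80low TAM than in PEC (1.67, SE 0.19, adjusted p = 0.000131).

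Relb encodes the transactivating partner of the Nfkb2 product and was the subunit on which the TAM subsets lay closest. Levels were 4.33, 4.29 and 3.99 in F4/80high TAM, 4.18, 4.57 and 3.73 in F4/80low TAM, and 1.58, 2.50 and 1.91 in PEC. Both TAM subsets lay above PEC without overlap, and their own ranges overlapped. Relb was 4.61-fold higher in F4/80high TAM than in PEC (log2 fold change 2.20, SE 0.28, limma adjusted p = 0.00019) and 4.48-fold higher in F4/80low TAM than in PEC (2.16, SE 0.28, adjusted p = 0.000278). The lowest PEC array was the one on the slide of the TAM arrays, and within that slide the log2 fold changes were 2.62 for F4/80high TAM and 2.58 for F4/80low TAM.

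Rela encodes the main transactivating subunit of the canonical branch and had the smallest fitted changes against PEC of the genes tested here. Its levels were 7.08, 6.87 and 6.78 in F4/80high TAM, 5.92, 6.29 and 6.31 in F4/80low TAM, and 5.75, 6.19 and 5.89 in PEC. The F4/80high TAM arrays lay above all others, while F4/80low TAM and PEC overlapped. Rela was 1.96-fold higher in F4/80high TAM than in PEC (log2 fold change 0.97, SE 0.19, limma adjusted p = 0.0024). In F4/80low TAM the log2 fold change against PEC was 0.23 with a 95% interval of -0.20 to 0.66 (adjusted p = 0.332). Within slide 1 it was 0.43 (adjusted p = 0.283), and with normexp background correction it was -0.07.

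Rel encodes the transactivating subunit best known from lymphocytes and activated myeloid cells, and its single probe gave no usable level on these arrays. Its intensities were 6.77, 3.02 and 5.59 in F4/80high TAM, 2.91, 2.99 and 2.71 in F4/80low TAM, and 16.6, 2.78 and 3.21 in PEC. It was well above background on PEC replicate 1 and on none of the other 8 arrays, so no fold is given. The scanner files place this probe at chr11:23641729-23641743 of mm9, a range of 15 bases for a 60-base probe. A second Rel probe was not present, and whether the low signal reflects the gene or the probe was not tested.

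Nfkbia, the inhibitor resynthesised fastest after NF-kappaB activation, had the largest fitted change of the 9 genes in F4/80high TAM against PEC. Its levels were 9.67, 9.27 and 9.38 in F4/80high TAM, 8.46, 8.30 and 8.06 in F4/80low TAM, and 3.99, 4.28 and 4.23 in PEC. On the intensity scale these were 51620, 34940 and 47200 in F4/80high TAM, 18800, 17750 and 15060 in F4/80low TAM, and 1208, 1592 and 1821 in PEC. No group overlapped another, and both TAM subsets lay more than 3 log2 units above PEC. Nfkbia was 38.7-fold higher in F4/80high TAM than in PEC (log2 fold change 5.27, SE 0.18, limma adjusted p = 1.59e-07) and 17.2-fold higher in F4/80low TAM than in PEC (4.11, SE 0.18, adjusted p = 6.97e-07). Its change against PEC in F4/80high TAM exceeded that of 98.9% of all genes tested.

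Nfkbie encodes another cytoplasmic inhibitor. It had levels of 5.50, 5.25 and 5.33 in F4/80high TAM, 3.04, 3.23 and 2.89 in F4/80low TAM, and 0.18, 0.85 and 0.55 in PEC. The 3 groups were fully separated, with the F4/80low TAM arrays about midway. Nfkbie was 28.5-fold higher in F4/80high TAM than in PEC (log2 fold change 4.83, SE 0.20, limma adjusted p = 3.34e-07) and 5.77-fold higher in F4/80low TAM than in PEC (2.53, SE 0.20, adjusted p = 1.7e-05).

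Nfkbib, the inhibitor known for slower turnover, showed smaller changes in the same order. Its levels were 5.98, 5.86 and 5.77 in F4/80high TAM, 4.76, 4.76 and 4.54 in F4/80low TAM, and 3.14, 3.30 and 3.22 in PEC. The spread within each group was at most 0.13 (SD, n = 3). Nfkbib was 6.28-fold higher in F4/80high TAM than in PEC (log2 fold change 2.65, SE 0.15, limma adjusted p = 1.97e-06) and 2.77-fold higher in F4/80low TAM than in PEC (1.47, SE 0.15, adjusted p = 7.43e-05).

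Nfkbiz, the nuclear cofactor, was near background in PEC. Its levels were 2.94, 2.57 and 2.13 in F4/80high TAM, 2.63, 1.26 and 1.41 in F4/80low TAM, and -2.01, -2.34 and -2.79 in PEC, where replicate 3 was not well above background. Every TAM array lay above every PEC array, and the TAM subsets overlapped through F4/80low TAM replicate 1. Nfkbiz was 30.5-fold higher in F4/80high TAM than in PEC (log2 fold change 4.93, SE 0.38, limma adjusted p = 9.75e-06) and 17.8-fold higher in F4/80low TAM than in PEC (4.15, SE 0.38, adjusted p = 3.62e-05). The size depends on how the dim PEC signal is treated. With normexp background correction the log2 fold changes were 2.79 for F4/80high TAM and 2.14 for F4/80low TAM, both still called, and the deposited value table gave 2.91 for F4/80high TAM and 2.40 for F4/80low TAM.

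Tnfaip3, the ubiquitin-editing enzyme, completed the set. Its levels were 8.13, 7.32 and 7.44 in F4/80high TAM, 5.67, 5.66 and 5.44 in F4/80low TAM, and 3.14, 4.37 and 4.22 in PEC. The groups did not overlap, and PEC replicate 1 lay more than 1 log2 unit below the PEC arrays of the other slide. Tnfaip3 was 13.1-fold higher in F4/80high TAM than in PEC (log2 fold change 3.71, SE 0.34, limma adjusted p = 2.42e-05) and 3.19-fold higher in F4/80low TAM than in PEC (1.68, SE 0.34, adjusted p = 0.00305). Within slide 1 the log2 fold changes were 4.49 for F4/80high TAM (adjusted p = 0.000308) and 2.45 for F4/80low TAM (adjusted p = 0.00367).

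Within slide 1 all 9 genes stayed called higher in F4/80high TAM than in PEC and the same 8 in F4/80low TAM, although the lone PEC array is then assumed to vary like the TAM groups. In slide 1 the remaining log2 fold changes in F4/80high TAM against PEC were 5.45 for Nfkbia, 5.18 for Nfkbie, 4.56 for Nfkbiz, 3.48 for Nfkb2, 2.77 for Nfkb1, 2.73 for Nfkbib and 1.16 for Rela. For F4/80low TAM they were 4.29 for Nfkbia, 3.78 for Nfkbiz, 2.88 for Nfkbie, 2.51 for Nfkb2, 1.64 for Nfkb1 and 1.55 for Nfkbib.

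**Figure D2:**
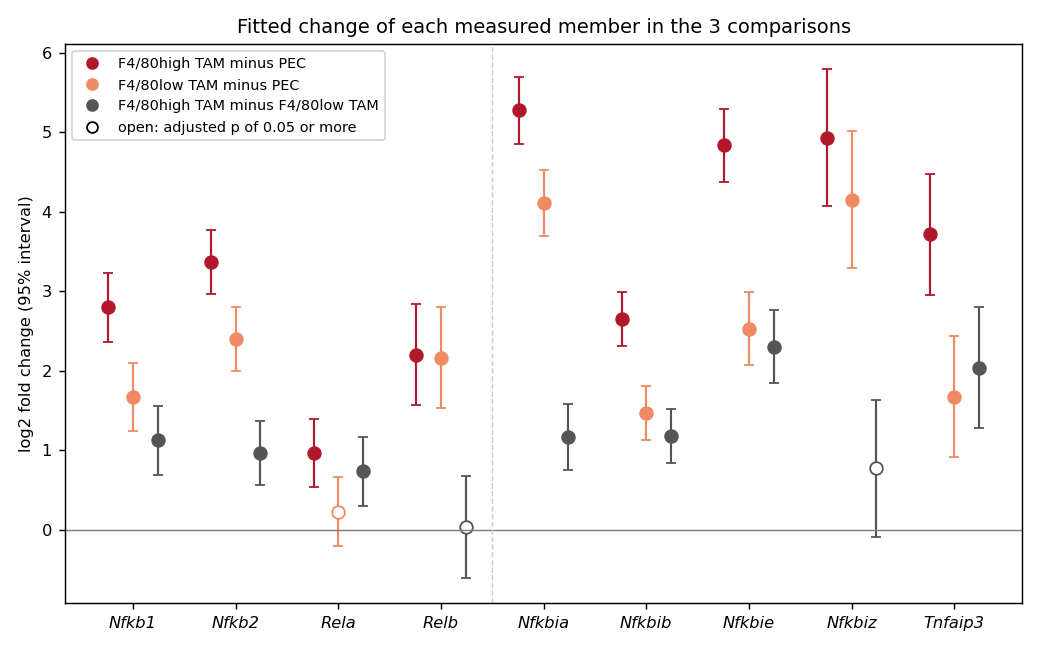
Fitted log2 fold change with its 95% interval for the 9 tested genes in the 3 comparisons, subunits left and inhibitors right of the dashed line. Filled points have an adjusted p under 0.05. Nfkbia, Nfkbie and Nfkbiz lie near 5 in F4/80high TAM against PEC, and the intervals of Rela in F4/80low TAM against PEC and of Relb and Nfkbiz between the TAM subsets include 0.

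The direct comparison of the TAM subsets separated Nfkbie and Tnfaip3 most. Nfkbie was 4.95-fold higher in F4/80high TAM than in F4/80low TAM (log2 fold change 2.31, SE 0.20, limma adjusted p = 7.8e-05), and the differences between same-numbered arrays were 2.46, 2.02 and 2.44. Tnfaip3 was 4.11-fold higher (2.04, SE 0.34, adjusted p = 0.00178), with pair differences of 2.45, 1.67 and 2.00. Both genes encode brakes of the pathway. The arrays of the TAM subsets did not overlap for either gene, so any pairing of them gives the same direction.

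The fitted differences for 4 further genes lay close to 1 log2 unit. Nfkbib was 2.27-fold higher in F4/80high TAM than in F4/80low TAM (log2 fold change 1.18, SE 0.15, limma adjusted p = 0.000513). Nfkbia was 2.24-fold higher (1.16, SE 0.18, adjusted p = 0.00143) and Nfkb1 2.18-fold higher (1.13, SE 0.19, adjusted p = 0.002). For Nfkb2 the difference was 1.96-fold (0.97, SE 0.18, adjusted p = 0.00314). In these 4 genes the arrays of the subsets did not overlap, and pair differences ran from 0.73 (Nfkb1, replicate 3) to 1.65 (Nfkb1, replicate 2).

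The remaining 3 genes differed less or less steadily. Rela was 1.67-fold higher in F4/80high TAM than in F4/80low TAM (log2 fold change 0.74, SE 0.19, limma adjusted p = 0.0162), with pair differences of 1.17, 0.58 and 0.47. This call was lost without F4/80high TAM replicate 1 (0.65, adjusted p = 0.0573) and with quantile normalization (0.45, adjusted p = 0.103). Nfkbiz had a log2 fold change of 0.78 with a 95% interval of -0.08 to 1.64 (adjusted p = 0.153) and pair differences of 0.30, 1.31 and 0.72. With the replicate number as a block its adjusted p was 0.0404, and without F4/80low TAM replicate 1 the log2 fold change was 1.21 (adjusted p = 0.0156). Relb had a log2 fold change of 0.04 with a 95% interval of -0.60 to 0.68 (adjusted p = 0.931), and its pair differences were 0.15, -0.29 and 0.26.

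**Figure D3:**
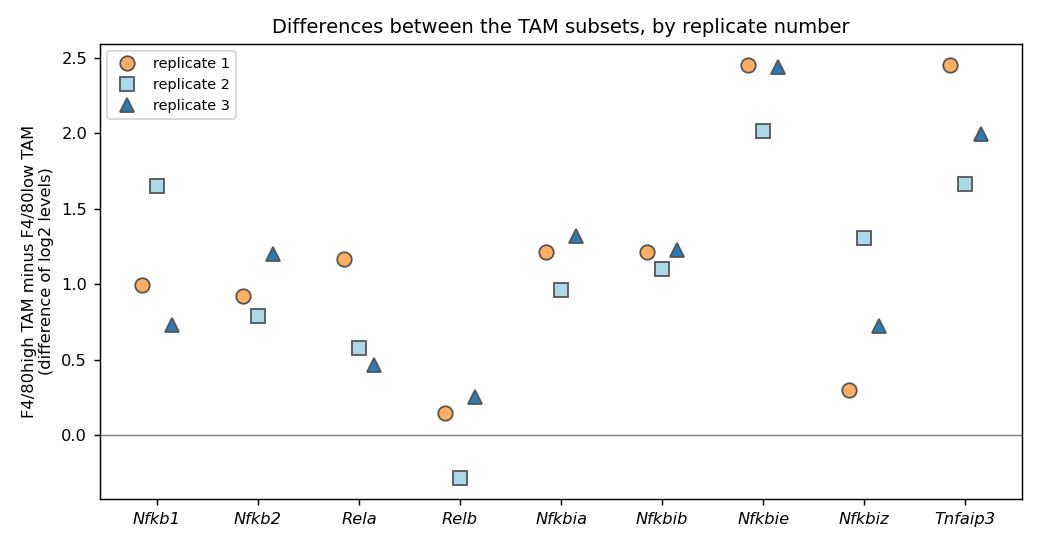
Difference in log2 level between F4/80high TAM and F4/80low TAM arrays of the same replicate number, for the 9 tested genes. Points are the 3 pairs. Nfkbie lies between 2.02 and 2.46 and Tnfaip3 between 1.67 and 2.45, and Relb has 1 pair below 0.

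More than 1 probe was present for 3 of the genes, which gives a second reading of the same RNA. The other Nfkb1 probe, printed on 2 spots, gave log2 fold changes of 2.85 in F4/80high TAM against PEC, 1.71 in F4/80low TAM against PEC and 1.14 between the TAM subsets. The other Relb probe gave 2.13 in F4/80high TAM against PEC, 2.26 in F4/80low TAM against PEC and -0.13 between the TAM subsets, and it overlaps the first by 9 bases at chr7:20191773-20191781 of mm9. For the other Nfkbib probe printed above the values were 2.71 in F4/80high TAM against PEC, 1.28 in F4/80low TAM against PEC and 1.43 between the TAM subsets. These readings kept the direction and the call of the probe used for the gene, except that the uncalled Relb difference between the TAM subsets changed sign.

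The remaining Nfkbib probe, at chr7:29543270-29543329 of mm9, was not well above background on any PEC array. It was at least 12.5-fold higher in F4/80high TAM than in PEC (limma adjusted p = 5.97e-05 over all kept probes) and at least 6.18-fold higher in F4/80low TAM than in PEC (adjusted p = 0.000409). Such a bound, here and below, sets the brighter group's mean against the lowest signal that was well above background on the dimmer group's arrays. Where the probe's own signal was higher, that signal was used instead. A limma p printed beside a bound belongs to the fitted change, which uses the signal below background, and not to the bound. This Nfkbib probe passed the filter only through the TAM arrays. Between the TAM subsets this probe had a log2 fold change of 1.02 (SE 0.45, limma adjusted p = 0.12) and was not called, unlike the other 2 Nfkbib probes. The deposited value table listed 9 of the 10 genes, without Rel, and the same test on it called 9 of them in F4/80high TAM against PEC, 8 in F4/80low TAM against PEC and 7 between the TAM subsets.

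**Figure D4:**
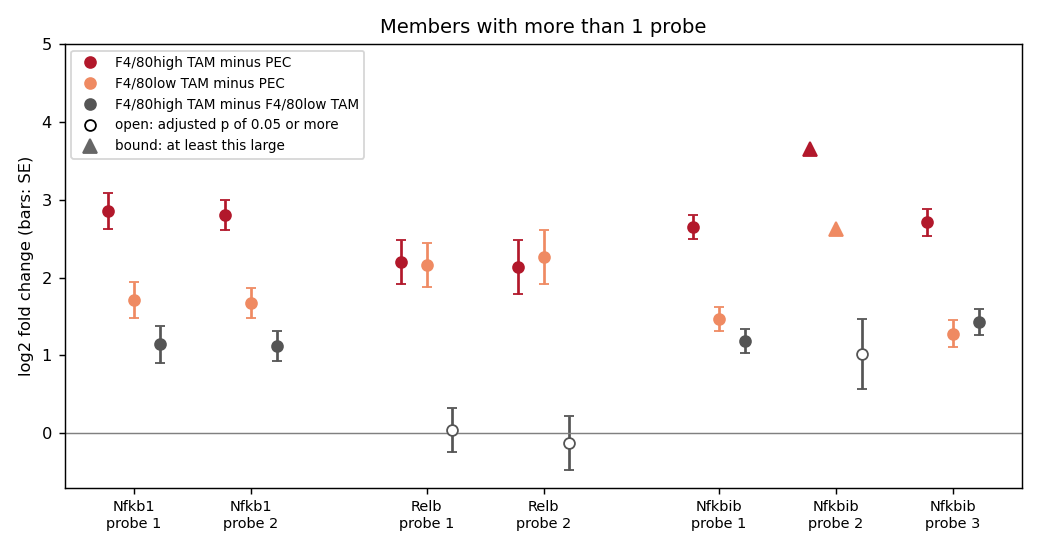
Log2 fold change of each probe of Nfkb1, Relb and Nfkbib in the 3 comparisons, with SE bars. Open points have an adjusted p of 0.05 or more, and triangles are bounds for the Nfkbib probe that was not above background in PEC. Probes of a gene have the same direction in both comparisons against PEC, and the Relb probes lie on either side of 0 between the TAM subsets.

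Other genes of the pathway were described from 4 lists. The first list held 11 kinases and partner proteins of kinases (Ikbkg, Tab1, Tab2 and Tab3) at or above the IKK step, all tested. Of these, 3 were higher and 1 was lower in F4/80high TAM than in PEC, with a median log2 fold change of 0.54. These 4 calls are 36.4% of the list, against 53.1% of all genes tested. In F4/80low TAM against PEC 3 were higher and 2 lower, with a median of -0.18, which is 45.5% called against 51.9% of all genes. In F4/80high TAM against F4/80low TAM 6 were higher and 0 lower (1 lower at an unadjusted p under 0.05), with a median of 0.74, which is 54.5% called against 32.6% of all genes. Ikbke, an IKK-related kinase, was higher in F4/80high TAM than in PEC by 2.79 on the log2 scale (SE 0.48, limma adjusted p = 0.00112). Map3k8, the kinase bound by the Nfkb1 precursor, was higher by 2.19 (SE 0.28, adjusted p = 0.000194), and Tab2, an adaptor of the kinase Map3k7, by 2.04 (SE 0.18, adjusted p = 2e-05). In F4/80low TAM against PEC the called genes with the largest changes were Tab2 with 1.01 (adjusted p = 0.00152), Map3k14, the kinase of the noncanonical branch, with 0.90 (adjusted p = 0.0315), and Map3k8 with 0.90 (adjusted p = 0.024). Ikbke differed between the TAM subsets by 1.53 (adjusted p = 0.0364), Map3k8 by 1.29 (adjusted p = 0.00729) and Tab2 by 1.03 (adjusted p = 0.0023). The count of 6 between the TAM subsets was 2 or 3 without F4/80high TAM replicate 1, 2 or 3 or F4/80low TAM replicate 1 or 3. It was also 2 with quantile normalization and 2 without the filter on dim probes, and 4 higher and 1 lower with median centring. In F4/80low TAM against PEC the balance of the calls in this list depended on the scaling. It was 1 higher and 3 lower with normexp, 3 higher and 0 lower with quantile normalization, and 4 higher and 0 lower with median centring. Without PEC replicate 2 or 3, within slide 1 and with the slide as a block it was 1 higher and 0 lower.

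The second list held 19 adaptors, ubiquitin ligases and kinases such as Irak1, Irak4, Ripk1 and Ripk2 that lead to IKK, all tested. Of these, 9 were higher and 1 lower in F4/80high TAM than in PEC (median log2 fold change 0.33). In F4/80low TAM 5 were higher and 6 lower than in PEC (median -0.15). The called shares of 52.6% in F4/80high TAM and 57.9% in F4/80low TAM lay near those of all genes tested, 53.1% and 51.9%. F4/80high TAM had 10 higher and 0 lower than F4/80low TAM (median 0.66), with 2 lower at an unadjusted p under 0.05, which is 52.6% called against 32.6% of all genes. Traf2, an adaptor of TNF receptors, was higher by 2.82 in F4/80high TAM (SE 0.22, limma adjusted p = 1.02e-05) and by 1.56 in F4/80low TAM (adjusted p = 0.000445) against PEC. Myd88, the adaptor of Toll-like and interleukin-1 receptors, was higher by 2.77 in F4/80high TAM (SE 0.15, adjusted p = 1.63e-06) and by 1.48 in F4/80low TAM (adjusted p = 7.63e-05). Malt1, a paracaspase of the CARD signalling complex, was higher in F4/80high TAM than in PEC by 2.56 (SE 0.24, adjusted p = 2.65e-05), and Birc2, a ubiquitin ligase, was higher in F4/80low TAM than in PEC by 1.49 (adjusted p = 0.000896). Malt1 differed between the TAM subsets by 2.08 (adjusted p = 0.000266), Rnf31, a subunit of the linear ubiquitin ligase, by 1.35 (adjusted p = 0.00189), and Myd88 by 1.29 (adjusted p = 0.000345). The balance in F4/80low TAM against PEC turned to 8 higher and 4 lower with quantile normalization and with median centring, and the 6 lower calls were 2 within slide 1. Between the TAM subsets quantile normalization gave 8 higher and 2 lower, and median centring 10 higher and 2 lower. In F4/80high TAM against PEC normexp gave 8 higher and 3 lower.

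Of 18 other brakes and nuclear cofactors, all tested, 6 were higher and 5 lower in F4/80high TAM than in PEC (median log2 fold change 0.13), and 6 were higher and 4 lower in F4/80low TAM (median -0.07). F4/80high TAM had 6 higher and 1 lower than F4/80low TAM (median 0.17). The called shares of 61.1%, 55.6% and 38.9% stand beside 53.1%, 51.9% and 32.6% of all genes in these 3 comparisons. Bcl3, an IkappaB relative that acts in the nucleus, was higher by 3.93 in F4/80high TAM (SE 0.20, limma adjusted p = 1.18e-06) and by 1.94 in F4/80low TAM (adjusted p = 8.21e-05) against PEC. Tnip3, a partner of the Tnfaip3 protein, was higher in F4/80high TAM than in PEC by 3.63 (SE 0.35, adjusted p = 3.45e-05), and Zc3h12a, an RNase that cuts cytokine mRNAs, by 2.53 (SE 0.23, adjusted p = 2.57e-05). Nfkbid, another nuclear IkappaB relative, was higher in F4/80low TAM than in PEC by 1.42 (adjusted p = 0.0011), and Tnip1, a further partner of the Tnfaip3 protein, by 1.37 (adjusted p = 0.00028). Tnip3 differed between the TAM subsets by 4.01 (SE 0.35, adjusted p = 7.56e-05), Bcl3 by 1.99 (adjusted p = 0.000169) and Tnip2, which binds Map3k8 together with the Nfkb1 precursor, 2.83-fold (adjusted p = 0.00317). Within slide 1 the lower calls against PEC were 1 in F4/80high TAM and 1 in F4/80low TAM. In F4/80low TAM against PEC normexp gave 5 higher and 5 lower, and between the TAM subsets quantile normalization and median centring each gave 6 higher and 2 lower.

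Textbook target genes of NF-kappaB had the largest median change of the 4 lists in each comparison. Of 32 listed genes, 31 were on the array and 27 were tested, and 23 were higher and 3 lower in F4/80high TAM than in PEC (median log2 fold change 5.48), while 23 were higher and 4 lower in F4/80low TAM (median 3.60). Between the TAM subsets 19 were higher in F4/80high TAM and 1, Cd80, was lower (median 1.55), which is 74.1% called against 32.6% of all genes. Some of these genes passed the filter only through TAM arrays, so the called shares against PEC are not set against those of all genes. The chemokine Ccl5 was higher by 10.58 in F4/80high TAM (SE 0.70, limma adjusted p = 4.24e-06) and by 8.03 in F4/80low TAM (adjusted p = 2.7e-05) against PEC. Cd40, a costimulatory receptor of the TNF receptor family, was higher by 8.14 in F4/80high TAM (SE 0.46, adjusted p = 1.89e-06) and by 5.16 in F4/80low TAM (adjusted p = 3.2e-05). The chemokine Ccl4 was higher in F4/80high TAM than in PEC by 7.66 (SE 0.22, adjusted p = 5.76e-08), and Traf1, a signalling adaptor, in F4/80low TAM by 5.20 (SE 0.24, adjusted p = 7.15e-07). The nitric oxide synthase Nos2 differed between the TAM subsets by 3.65 (SE 0.44, adjusted p = 0.000379), the cytokine Il6 by 3.47 (SE 0.33, adjusted p = 0.000123) and Ccl4 by 3.42 (SE 0.22, adjusted p = 1.53e-05). In PEC 12 of the 31 genes were well above background on no array, of which 4 were not tested. The others have only a bound against PEC, and the list medians were the same with these genes at their bounds. Cxcl2 was fitted on 2 of the 3 F4/80low TAM arrays, since its spot was marked as an outlier on the other, and no bound was set for it there.

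**Figure D5:**
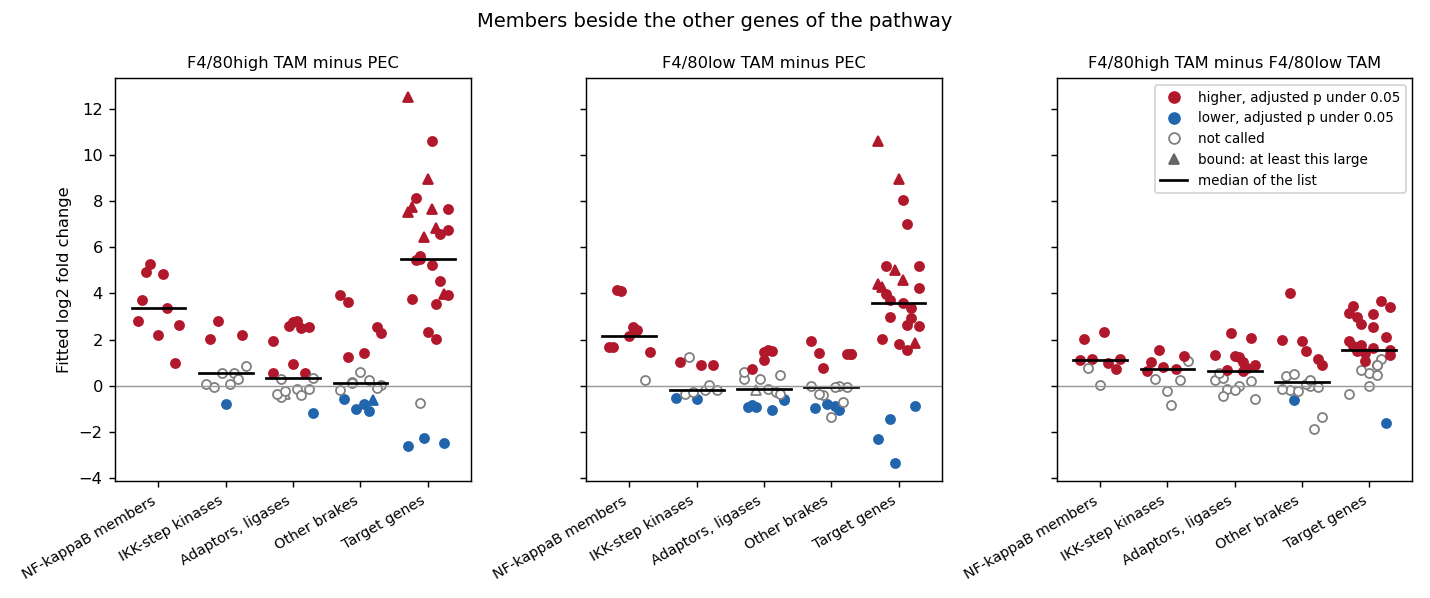
Log2 fold change of every tested gene of the NF-kappaB members and of the 4 pathway lists in the 3 comparisons. Red and blue are calls at an adjusted p under 0.05, open symbols are not called, triangles are bounds for genes not above background in 1 group (Cxcl2 in F4/80low TAM against PEC is a fitted value), and lines are medians. The medians of the members are 3.37, 2.16 and 1.13 and those of the targets 5.48, 3.60 and 1.55, while the other 3 lists stay between -0.18 and 0.74.

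Markers of the labelled and of other cell types were read beside these results. The 8 macrophage markers were well above background on all arrays in F4/80high TAM and in PEC and 7 of 8 in F4/80low TAM, where Mertk was above it on none. Adgre1 averaged 5.94 ± 0.26 in F4/80high TAM, 2.89 ± 0.50 in F4/80low TAM and 5.88 ± 0.25 in PEC (SD, n = 3 each). The summed linear level of 9 neutrophil markers was 222 to 324 times the 75th percentile in F4/80high TAM, 1835 to 7008 in F4/80low TAM and 119 to 154 in PEC. Of these markers 4 in F4/80high TAM, 9 in F4/80low TAM and 3 in PEC were above background on all arrays of the group. In F4/80high TAM the neutrophil markers Mmp8 and Cxcr2 were above background on no array, and in PEC Retnlg, Ngp and Cxcr2 were not. The receptor gene Csf3r made up 70.3% to 96.7% of the sum in F4/80high TAM and 85.3% to 93.3% in PEC. It did not separate the TAM subsets (log2 fold change 0.01, limma adjusted p = 0.986), while the other 8 neutrophil markers were all called lower in F4/80high TAM than in F4/80low TAM. Over all genes tested 14.0% were called lower in this comparison. Some neutrophil markers, such as Cxcr2 and Ngp, passed the filter only through F4/80low TAM arrays. F4/80low TAM replicate 1 had the sum of 7008, against 2210 and 1835 on the other 2 arrays. Within its group this array had the highest Nfkbiz, Nfkbia and Tnfaip3 levels and the lowest Rela level, and the remaining tested NF-kappaB genes lay in between.

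The summed level of 10 T and NK cell markers was 13.1 to 17.4 in F4/80high TAM, 30.3 to 61.8 in F4/80low TAM and 7.15 to 12.0 in PEC. Cd4 made up 69.7% to 75.1% of the sum in F4/80high TAM and 64.3% to 71.2% in PEC, and 7 of the 10 markers were above background on no F4/80high TAM array, against 1 in F4/80low TAM and 6 in PEC. Of 8 tested markers, 6 were called lower in F4/80high TAM than in F4/80low TAM, against 14.0% of all genes tested. Gzma, Cd3d, Cd3g and Cd8a passed the filter only through F4/80low TAM arrays, where they are high. Gzma was at least 51.4-fold lower, Cd2 at least 23.2-fold, Cd3d at least 13.4-fold and Cd3g at least 7.36-fold, so the sums understate these differences. The part of neutrophil, T and NK cell RNA in the results on F4/80low TAM was not tested. In such bulk samples fewer cells of a type and less RNA per cell cannot be told apart.

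Among B cell markers, Cd79b was above background on 0 F4/80high TAM, 2 F4/80low TAM and 2 PEC arrays, and Ms4a1 on 0 F4/80high TAM, 1 F4/80low TAM and 1 PEC array. Pax5 and Cd79a were above it on none of the 9 arrays. Of 6 dendritic cell markers, Ccr7 and Zbtb46 were above background on all F4/80high TAM arrays, Ccr7 and Flt3 on all F4/80low TAM arrays and none on all PEC arrays. Their summed level was 34.8 to 43.6 in F4/80high TAM, 33.3 to 79.5 in F4/80low TAM and 0.468 to 0.848 in PEC, and Ccr7 made up at least 93.0% of it on every TAM array. The other tested markers, Flt3 and Zbtb46, moved in opposite directions between the TAM subsets. Flt3 was at least 8.68-fold lower (limma adjusted p = 0.000383) and Zbtb46 at least 9.34-fold higher (adjusted p = 0.000477) in F4/80high TAM than in F4/80low TAM. Flt3 passed the filter only through F4/80low TAM arrays and Zbtb46 only through F4/80high TAM arrays. Clec9a, Cd209a and Xcr1 were not tested, and of these only Clec9a was above background on any array, on 2 of F4/80low TAM.

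Summed levels of 7 mast cell and eosinophil markers were 0.756 to 0.834 in F4/80high TAM, 1.94 to 4.80 in F4/80low TAM and 5.29 to 8.50 in PEC. In PEC Siglecf made up 95.7% to 96.9% of this sum and the other 6 markers were above background on no array. Kit ran the other way, at least 2.34-fold higher in F4/80high TAM (limma adjusted p = 2.73e-05) and at least 9.90-fold higher in F4/80low TAM (adjusted p = 2.59e-06) than in PEC. Sums of 9 fibroblast, endothelial and mesothelial markers were 1.45 to 3.35 in F4/80high TAM, 3.54 to 4.56 in F4/80low TAM and 1.24 to 2.00 in PEC. The mesothelial marker Msln made up 40.1% to 56.2% of the sum in F4/80low TAM and was above background on no F4/80high TAM or PEC array. The part of these cell types in the results was not tested.

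Genes known to rise when tissue is handled were read as well. Of 13 such genes tested, 7 were higher and 3 lower in F4/80high TAM than in PEC. In F4/80low TAM 8 were higher and 1 lower than in PEC. In F4/80high TAM 3 were higher and 5 lower than in F4/80low TAM. The called shares of 76.9%, 69.2% and 61.5% stand beside 53.1%, 51.9% and 32.6% of all genes in these 3 comparisons. The heat shock gene Hspa1a was 111-fold higher in F4/80high TAM (limma adjusted p = 9.36e-07) and 77.5-fold higher in F4/80low TAM (adjusted p = 2.17e-06) than in PEC. Egr1 was above background on no PEC array and was at least 20.0-fold higher in F4/80high TAM (adjusted p = 5.59e-06) and at least 35.0-fold higher in F4/80low TAM (adjusted p = 3.42e-06) than in PEC. Atf3 went the other way and was lower in both TAM subsets than in PEC. Its log2 fold change was -2.96 in F4/80high TAM (limma adjusted p = 8.5e-05) and -2.81 in F4/80low TAM (adjusted p = 0.000159). Jun (-1.53, adjusted p = 0.00148) and Btg2 (-1.2, adjusted p = 0.0103) were also lower in F4/80high TAM than in PEC. Fos averaged 1.96 ± 0.54 in F4/80high TAM, 3.55 ± 0.30 in F4/80low TAM and 2.41 ± 0.31 in PEC (SD, n = 3 each).

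The handling genes did not share 1 direction between the TAM subsets. Dusp1 was higher in F4/80high TAM than in F4/80low TAM by 2.08 on the log2 scale (limma adjusted p = 0.00154), Zfp36 by 1.41 (adjusted p = 0.0127) and Junb by 1.14 (adjusted p = 0.0135), as were the 7 called NF-kappaB genes. The log2 fold change was -2.12 for Nr4a1 (adjusted p = 0.0247), -1.67 for Btg2 (adjusted p = 0.00333), -1.59 for Fos (adjusted p = 0.00328), -1.49 for Jun (adjusted p = 0.00332) and -1.17 for Ier2 (adjusted p = 0.0259). The part of handling in the results was not tested.

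The patterns of the 9 genes over the 9 arrays were set against other tested genes by the root mean square difference of levels, each gene centred on its own mean. Only tested genes with a name matched in RefSeq and a level on all 9 arrays could be named as nearest. The nearest to Nfkb2 were Nod1, an intracellular sensor of bacterial peptidoglycan (0.110), and Birc3, a ubiquitin ligase and textbook NF-kappaB target (0.148). Nearest to Nfkbib were Myd88 (0.113) and Tet2, an enzyme that oxidises methylated cytosine (0.116), and nearest to Nfkb1 were Nfkbib (0.223) and Myd88 (0.228). Tnfaip3 lay nearest to Cflar, an inhibitor of death receptor signalling (0.319), and Arid5a, an RNA-binding protein (0.329).

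For Nfkbie the nearest genes were Fnbp1l (0.273) and the costimulatory ligand Cd86 (0.320), and for Nfkbia the receptor Gpr18 (0.267) and Cdk5r1 (0.332). Relb lay nearest to Lefty2 (0.192) and Noxred1 (0.275), Nfkbiz to Amer2 (0.350) and Epop (0.440), and Rela to Ptpn23 (0.0474) and Krit1 (0.0821). These distances are descriptions over 9 arrays that share 3 groups, and a gene that varies little, such as Rela with an SD of 0.473 over the arrays, finds near neighbours more easily than Nfkbia with an SD of 2.40.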

How the data were processed

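RNA of 9 samples was hybridised to 1-colour (Cy3) Agilent arrays. Per the file headers, the deposited scanner files hold background-subtracted processed intensities made with Agilent Feature Extraction 10.5.1.1, with probe positions on mm9. Each was reduced to log2 of the intensity minus the array's 75th percentile, control spots and outlier spots left out, and spots of 1 probe averaged. The deposited value table holds values that match a log2 scale (correlation with the scanner values 0.960 to 0.978 per array, slope 0.690 to 0.775, column medians 8.26 to 8.35). How the authors normalised and filtered it is not given in the sources used here.

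Probes were named through RefSeq (GRCm38.p6) where the accession matched, which held for 26413 of 55681 probes and renamed 3093, and otherwise kept the file's name. Probes that any group had well above background on each of its 3 arrays were kept (21197), and the kept probe with the highest mean over 9 arrays stood for its gene. limma 3.58.1 in R 4.3.3 fitted group means on all 9 arrays, with Benjamini-Hochberg adjustment over 16462 genes at 0.05, two-sided. The fit was tested on simulated data. The number of arrays, 3 per group, limits the precision.

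The named genes were all 10 members, up to 3 called genes per pathway list and comparison with the largest change among those above background on all arrays of both groups, and the 2 nearest genes of each member called in at least 2 comparisons. Fos, Egr1 and the cell type marker lists were added beside them, and further handling and marker genes were named after their values were seen. The members and lists were chosen with earlier results of these data known. TAM arrays of the same replicate number deviated together (correlations 0.233, 0.171 and 0.134 for numbers 1, 2 and 3), against -0.168 to 0.0226 for unlike numbers. These numbers were therefore taken to pair the TAM arrays. Against PEC, same numbers gave -0.096 to 0.0912 and unlike numbers -0.11 to 0.133, so PEC numbers were not taken as pairs. The TAM pairing rests on these correlations only and is weak, since 0.133 lies near the 0.134 of TAM number 3. The main test did not use it. Alternatives covered the background correction, normalization, dim-probe filter, probe summary, deposited table, slide, replicate block, the groups fitted and leaving out each array.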

Additional observations from a re-analysis of the deposited data

Results flagged for a closer look

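For 7 of the 9 tested genes the change against PEC in F4/80high TAM differed from that in F4/80low TAM by a direct test. That test is the limma contrast between the TAM subsets, so these are the same 7 calls as above. It called 32.6% of all genes tested, 18.6% higher and 14.0% lower. The difference of log2 fold changes was 2.31 for Nfkbie (4.83 in F4/80high TAM and 2.53 in F4/80low TAM, limma adjusted p = 7.8e-05) and 2.04 for Tnfaip3 (3.71 in F4/80high TAM and 1.68 in F4/80low TAM, adjusted p = 0.00178). It was 1.18 for Nfkbib (adjusted p = 0.000513), 1.16 for Nfkbia (adjusted p = 0.00143), 1.13 for Nfkb1 (adjusted p = 0.002) and 0.97 for Nfkb2 (adjusted p = 0.00314). For Rela it was 0.74 (adjusted p = 0.0162), a call that 2 of 19 alternatives did not keep. The same arrays differed in Adgre1, by 3.05 on the log2 scale (adjusted p = 8.22e-05), and in the summed neutrophil markers given above. Their part in these differences was not tested.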

How the results depend on the processing

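The 9 tested genes were refitted under 19 alternatives in 3 comparisons, which gave 513 values. Of these, 509 kept their direction where called and their side of the threshold, 2 lost a call (Rela between the TAM subsets), 2 gained one (Nfkbiz between the TAM subsets) and 0 called values reversed. Many of these values are not separate checks. The replicate block, and fits that drop arrays of the third group, change only the error of a log2 fold change. The slide block did the same between the TAM subsets. Against PEC it gave the same log2 fold changes as slide 1 alone. Uncalled values changed sign for Rela in F4/80low TAM against PEC (-0.07 with normexp) and for Relb between the TAM subsets (-0.23 in the deposited table). The replicate block covered all 9 arrays and so also matched PEC arrays by number, although PEC numbers were not taken as pairs. With it 8586, 8349 and 5186 genes were called in F4/80high TAM against PEC, F4/80low TAM against PEC and between the TAM subsets. Of the members 9, 8 and 8 were called, and Nfkbiz between the TAM subsets was the 1 member call that the replicate block changed. With the slide as a block 5631 genes were called in F4/80high TAM against PEC and 4904 in F4/80low TAM against PEC, compared with 8737 and 8542 without it. Within slide 1 these counts were 4894 and 4127, with 1 PEC array. Without a filter on dim probes 14388 of 36492 genes were called in F4/80low TAM against PEC. Leaving out 1 array at a time gave 7014 to 9006, 6604 to 8468 and 3914 to 5508 called genes in the 3 comparisons. Median centring shifted all log2 fold changes by 0.069, 0.159 and -0.090. Counts over the pathway lists had 456 values, of which 69 moved by over 1.5 times. These were small counts of the kinase, adaptor and other brake lists and of lower targets. Signal near background limits Nfkbiz in PEC, 1 Nfkbib probe in PEC and Rel in all groups.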
